A study of Mus musculus with 24 samples.

Results

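The response of the liver to a high-fat diet was examined in female C57BL/6 mice labelled as lacking Cyp2b9, Cyp2b10 and Cyp2b13 (Cyp2b-null). The series asks what role the Cyp2b enzymes have in diet-induced obesity, and its 24 liver libraries cover both sexes, both genotypes and both diets. The comparison described here rests on 6 of these 24 libraries, chosen by their titles. Of these, 3 came from Cyp2b-null females on a normal chow diet (ND) and 3 from Cyp2b-null females on a diet with 60% fat (HFD), fed for 10 weeks. Both groups carry the same deletion, so the comparison is one of diets within the null genotype. Another 6 libraries, from wild-type (WT) females on the same diets, entered the fit to estimate the spread and to test whether the diet difference depended on genotype. Female RNA was extracted with Trizol and made into libraries with the NEB Next Ultra RNA kit, per the labels. The age of the mice is not given in the sources used here. The labels state 3 per group but do not say that each library is a separate animal, and each p-value therefore reflects only how far the libraries of a group differ.

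Cyp2b enzymes are cytochrome P450 monooxygenases of the endoplasmic reticulum that oxidise drugs, steroids and polyunsaturated fatty acids, and the nuclear receptor CAR induces them. Hepatic fat and sterol synthesis is switched on by SREBP transcription factors and ChREBP, and dietary fat, in particular unsaturated fat, lowers the SREBP-1c programme, while PPARα drives fatty acid oxidation when fatty acids are abundant. Kupffer cells are the resident macrophages of the liver sinusoids, and interferons act on most liver cells through STAT transcription factors to induce defence and antigen presentation genes.

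The genotype given as a characteristic disagrees with the title in 6 of the 12 female libraries. Among them are the 3 Cyp2b-null libraries on ND, whose characteristic reads wild type. The counts of the targeted genes followed the titles. Cyp2b13 (chromosome 7, 26061497 to 26096197, forward strand, GRCm38) had 0 counts in all 6 Cyp2b-null libraries and levels of 235 to 527 CPM (counts scaled to library size) in the 6 WT libraries. Cyp2b9 (chromosome 7, 26173411 to 26210661, forward strand) had 5, 6 and 17 counts in the Cyp2b-null libraries on ND and 0, 2 and 4 on HFD, and 304 to 513 CPM in WT. Cyp2b10 (chromosome 7, 25897620 to 25926624, forward strand) had 4, 6 and 17 counts on ND and 0, 4 and 0 on HFD. Cyp2b9, Cyp2b10 and Cyp2b13 passed the filter on low counts only through the WT libraries, so no diet difference is read from these residual counts. Reads can also be shared among the near-identical Cyp2b genes.

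The 6 libraries held 2245463 to 2650404 counts, which limits the precision for low transcripts. All 14 hepatocyte markers were measured, with summed levels of 114696 to 159513 CPM on ND and 100152 to 131544 CPM on HFD. Mitochondrially encoded genes took 3.998% to 7.17% of the counts on ND and 3.85% to 6.52% on HFD. The first principal component of the 12 female libraries, with 29.2% of the variance, parted 5 libraries from 7 and followed neither diet nor genotype. Cyp2b-null ND 2, ND 3 and HFD 2 lay on the smaller side, and ND 1, HFD 1 and HFD 3 on the other.

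Of the 11830 genes tested, 0 (0%) differed between HFD and ND in Cyp2b-null females at an edgeR adjusted p below 0.05. The smallest adjusted p was 0.0757, for Scd1. At an unadjusted p below 0.05 there were 568 genes (4.8% of those tested), 279 higher on HFD (2.36%) and 289 lower (2.44%). All 3 HFD libraries lay above all 3 ND libraries for 731 genes (6.18%) and below them for 597 (5.05%). Of all genes tested 51.3% had a positive and 48.7% a negative difference, and the median log2 difference was 0.01. Other tools on the same counts called few genes. DESeq2 called 3, Scd1, Me1 and Csad, with 530 genes at an unadjusted p below 0.05, and limma voom with library weights called 1, Scd1, with 1434. Since no gene passed the test, the values below are given as levels and differences with their errors. Me1, Csad, Lpin2, Tm7sf2, Gbp7, Gbp3, Gadd45b and Klf10 were named by a rule that takes only genes whose diets do not overlap. Their lack of overlap was therefore fixed by that choice. Up to 3 members of each list were named by the smallest unadjusted p of this same difference. That choice favours members without overlap, so they are the extremes of their lists.

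Scd1 encodes stearoyl-CoA desaturase 1, which makes oleate from stearate. It lies on chromosome 19, 44394455 to 44407879, reverse strand, and is protein coding. Its level was 8700, 5088 and 6086 CPM in the 3 ND libraries and 2359, 2185 and 2730 CPM in the 3 HFD libraries. Every HFD library was below every ND library, and the HFD libraries lay close together while the ND libraries were spread. Means were 6625 ± 1865 CPM on ND and 2424 ± 278 CPM on HFD (SD, n = 3 libraries each). The log2 difference, HFD minus ND, was -1.45 ± 0.215 (SE), with a 95% interval of -1.91 to -0.99. Scd1 was called by DESeq2 (adjusted p = 5.39e-08), by limma voom (0.0148) and by edgeR with a term for the 2 library sides (0.000314), and the adjusted p over all alternatives ran up to 0.496.

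Me1 encodes the cytosolic malic enzyme, which supplies NADPH for fatty acid synthesis, and lies on chromosome 9, 86581371 to 86695953, reverse strand. It was at 166, 191 and 157 CPM on ND and at 84.1, 97.6 and 97.7 CPM on HFD. The groups did not overlap, and the spread within each was small beside the gap. The log2 difference was -0.88 ± 0.171 (edgeR adjusted p = 0.683). DESeq2 gave an adjusted p of 0.000665, and across alternatives the difference stayed between -0.94 and -0.79.

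Csad encodes cysteine sulfinic acid decarboxylase of taurine synthesis, which supplies the taurine for bile acid conjugation, and lies on chromosome 15, 102176999 to 102204724, reverse strand. It was at 176, 536 and 376 CPM on ND and at 80.6, 106 and 35.1 CPM on HFD. The lowest ND library was above the highest HFD library, but the ND libraries were spread over a wide range. The log2 difference was -2.29 ± 0.536 (edgeR adjusted p = 0.963, DESeq2 adjusted p = 0.00543). Csad shares exon bases with Zfp740 on the opposite strand and Me1 with a noncoding transcript, A330041J22Rik. Whether the counting used strand is not given in the sources used here, so such values may hold reads of the partner. The same holds for Elovl6, Gbp7, Gbp2, Irf1, Tap2, Psmb8, Folr2, Cd74, Cyp2a4, Usp2, Rgs16 and Prom1, which share exon bases with annotated transcripts.

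**Figure D1:**
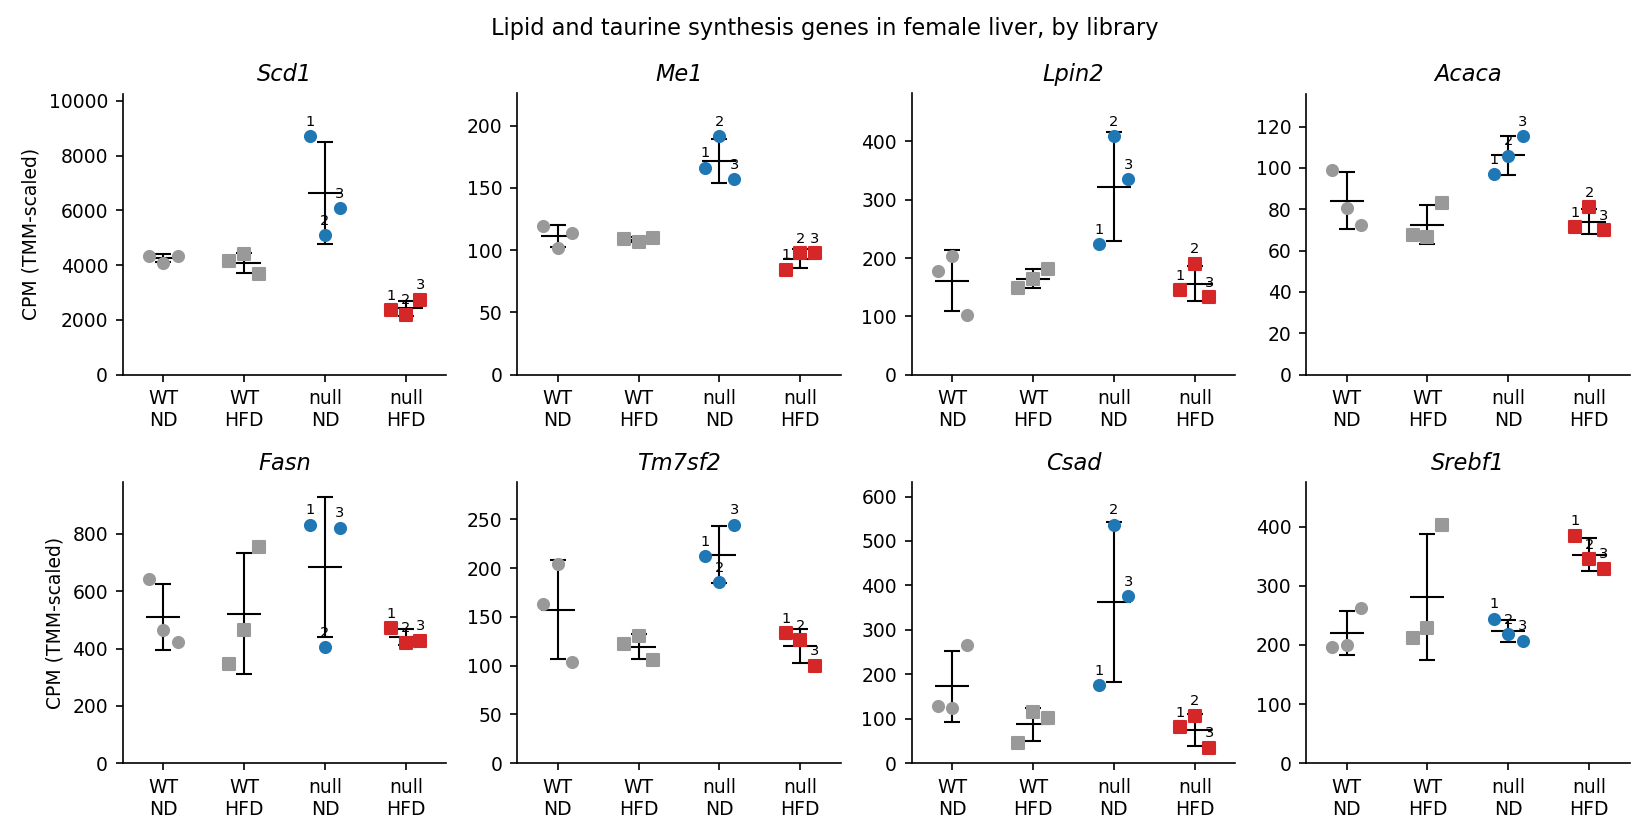
Levels in CPM, scaled by TMM, of 8 genes of fat, sterol and taurine synthesis (y axis, from 0, a separate scale for each gene) in the 4 groups of female libraries (x axis); points are libraries, numbered in the Cyp2b-null groups, and bars are the mean ± SD of 3 libraries. Scd1 and Me1 lay lower in all 3 Cyp2b-null HFD libraries than in the other 9, while Srebf1 lay higher in them than in the Cyp2b-null ND libraries.

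Fatty acid and triglyceride synthesis genes were mostly lower on HFD. Of the 28 genes listed 25 were tested, of which 17 had a negative and 8 a positive difference, with a median of -0.26 against 0.01 over all genes. At an unadjusted p below 0.05 there were 6 lower and 1 higher, beside 2.44% lower and 2.36% higher of all genes tested. The summed level of the list was 15518, 10145 and 12615 CPM on ND and 8425, 7351 and 7829 CPM on HFD. Scd1 alone gave 8700 CPM of this sum in ND 1 and 2359 CPM in HFD 1. Without Scd1 the rest of the sum overlapped between the diets. Without ND 1 the median of the list was -0.12 and without ND 2 it was -0.42, so its size depended on which ND library was used.

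The acetyl-CoA carboxylase gene Acaca, which makes malonyl-CoA, was at 96.8, 106 and 115 CPM on ND and 71.2, 80.9 and 69.8 CPM on HFD (log2 difference -0.52 ± 0.187). The phosphatidate phosphatase genes of triglyceride synthesis lay on the same side. Lpin2 was at 224, 409 and 335 CPM on ND and 145, 191 and 133 CPM on HFD (-1.05 ± 0.27), and Lpin1 at 65.1, 153 and 97.5 CPM on ND and 37.6, 54.6 and 33.9 CPM on HFD (-1.32 ± 0.473). In all of these genes the HFD libraries lay below the ND libraries.

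Fasn, the fatty acid synthase, overlapped between the diets. Its levels were 831, 404 and 821 CPM on ND and 471, 420 and 427 CPM on HFD (-0.64 ± 0.305). The elongase gene Elovl6 had the same shape, with 196, 76.4 and 219 CPM on ND and 105, 88.4 and 109 CPM on HFD (-0.70 ± 0.367). In both genes ND 2 was as low as the HFD libraries. Without ND 2 the differences were -0.91 for Fasn and -1.04 for Elovl6.

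Srebf1, the gene of the SREBP-1 transcription factors that drive these enzymes, stood on the other side. It was at 244, 218 and 207 CPM on ND and 385, 345 and 329 CPM on HFD. All HFD libraries were above all ND libraries, with means of 223 ± 19 and 353 ± 28.6 CPM (0.66 ± 0.236, edgeR adjusted p = 0.963). The deposited counts are per gene, so they do not part the 2 main transcripts of Srebf1. Srebf1 shares exon bases with Rai1 on the opposite strand and with Mir6922, whose part in the value was not tested.

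Cholesterol synthesis and uptake genes were lower on HFD in 25 of 28 tested members, and all 28 listed were tested. The median difference was -0.57 against 0.01 over all genes, with 6 members lower and 0 higher at an unadjusted p below 0.05. Of all genes tested 2.44% were lower and 2.36% higher at that p. The summed level was 6872, 4126 and 6881 CPM on ND and 5901, 3613 and 3301 CPM on HFD. ND 2 lay below HFD 1 in this sum, so the diets overlapped. Leaving out libraries moved the list widely. The median was -0.95 without HFD 1, with 17 members lower at an unadjusted p below 0.05, and -0.32 without HFD 3, with 1. With all libraries this count was 13 with no filter on low counts and 10 with limma voom. Over all genes tested, 254 of 12182 were lower at that p without HFD 1 and 167 of 12123 without HFD 3. With no filter 489 of 24203 were lower, and with limma voom 747 of 11830.

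Tm7sf2, a sterol reductase of the later steps, was at 212, 185 and 244 CPM on ND and 133, 126 and 99.9 CPM on HFD (-0.84 ± 0.235). It was lower in every HFD library. Tm7sf2 shares exon bases with Vps51, also on the minus strand.

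PPARα targets and fatty acid oxidation genes showed no common shift. Of 44 tested of 46 listed, 29 had a positive and 15 a negative difference, with a median of 0.10. Acot3 and Acot4, acyl-CoA thioesterases of the peroxisome, were the members furthest to the higher side. Acot3 was at 128, 196 and 153 CPM on ND and 321, 266 and 436 CPM on HFD (1.10 ± 0.315), and Acot4 at 51.7, 53.4 and 76.0 CPM on ND and 95.5, 86.5 and 95.8 CPM on HFD (0.62 ± 0.233). Neither gene overlapped between the diets, though the pair are neighbouring paralogues that share exon bases with the same annotated transcripts and can share reads.

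Other genes of the PPARα programme did not follow. Cpt1a, the carnitine palmitoyltransferase that admits fatty acids to mitochondria, overlapped at 208 to 339 CPM on ND and 249 to 383 CPM on HFD (0.25 ± 0.237). Cyp4a14, a fatty acid omega-hydroxylase, lay between 245 and 825 CPM on ND and between 279 and 819 CPM on HFD (0.18, 95% interval -1.16 to 1.52). Its direction turned with the library left out. Cyp4a32, a close relative, was at 19.97, 39.1 and 40.4 CPM on ND and 22.3, 20.4 and 12.8 CPM on HFD (-0.85 ± 0.279). Fgf21, a fasting hormone of the liver, had 2.17, 9.88 and 12.9 CPM on ND and 3.52, 3.24 and 1.51 CPM on HFD (-1.59 ± 0.68), with ND 1 inside the HFD range.

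Lipid droplet and lipolysis genes were divided, with 10 higher and 9 lower of 19 tested of 23 listed and a median of 0.01. Plin2, the droplet coat protein that follows hepatic fat content, was at 394, 604 and 454 CPM on ND and 385, 350 and 377 CPM on HFD (-0.38 ± 0.203). Its HFD libraries were below its ND libraries by a narrow margin. G0s2, an inhibitor of triglyceride lipase, was at 82.1, 49.0 and 129 CPM on ND and 103, 158 and 137 CPM on HFD (0.61 ± 0.283). Cidec, which enlarges droplets, was at 1.74 to 7.19 CPM on ND and 2.74 to 6.01 CPM on HFD. Pparg, a nuclear receptor that is raised in fatty livers, was at 12.1 to 13.9 CPM on ND and 7.83 to 13.0 CPM on HFD (-0.20 ± 0.433).

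Of the 20 fatty acid uptake and binding genes, all tested, 13 were lower and 7 higher (median -0.08). At an unadjusted p below 0.05 there were 2 lower and 1 higher, beside 2.44% lower and 2.36% higher of all genes tested. Fabp2 was on the higher side (0.80, and 0.54 to 1.24 over the alternatives). Dbi, the acyl-CoA binding protein, was at 1225, 1520 and 1404 CPM on ND and 937, 1058 and 830 CPM on HFD (-0.55 ± 0.185), without overlap. Fabp5, a fatty acid binding protein, was at 39.9, 24.7 and 35.6 CPM on ND and 24.3, 6.48 and 10.9 CPM on HFD (-1.25 ± 0.494). Cd36, the fatty acid translocase, was nearly equal in the ND libraries, at 59.9, 60.6 and 58.6 CPM, and split on HFD, at 38.0, 113 and 107 CPM (0.53 ± 0.357). HFD 1 was below and HFD 2 and HFD 3 were above every ND library.

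**Figure D2:**
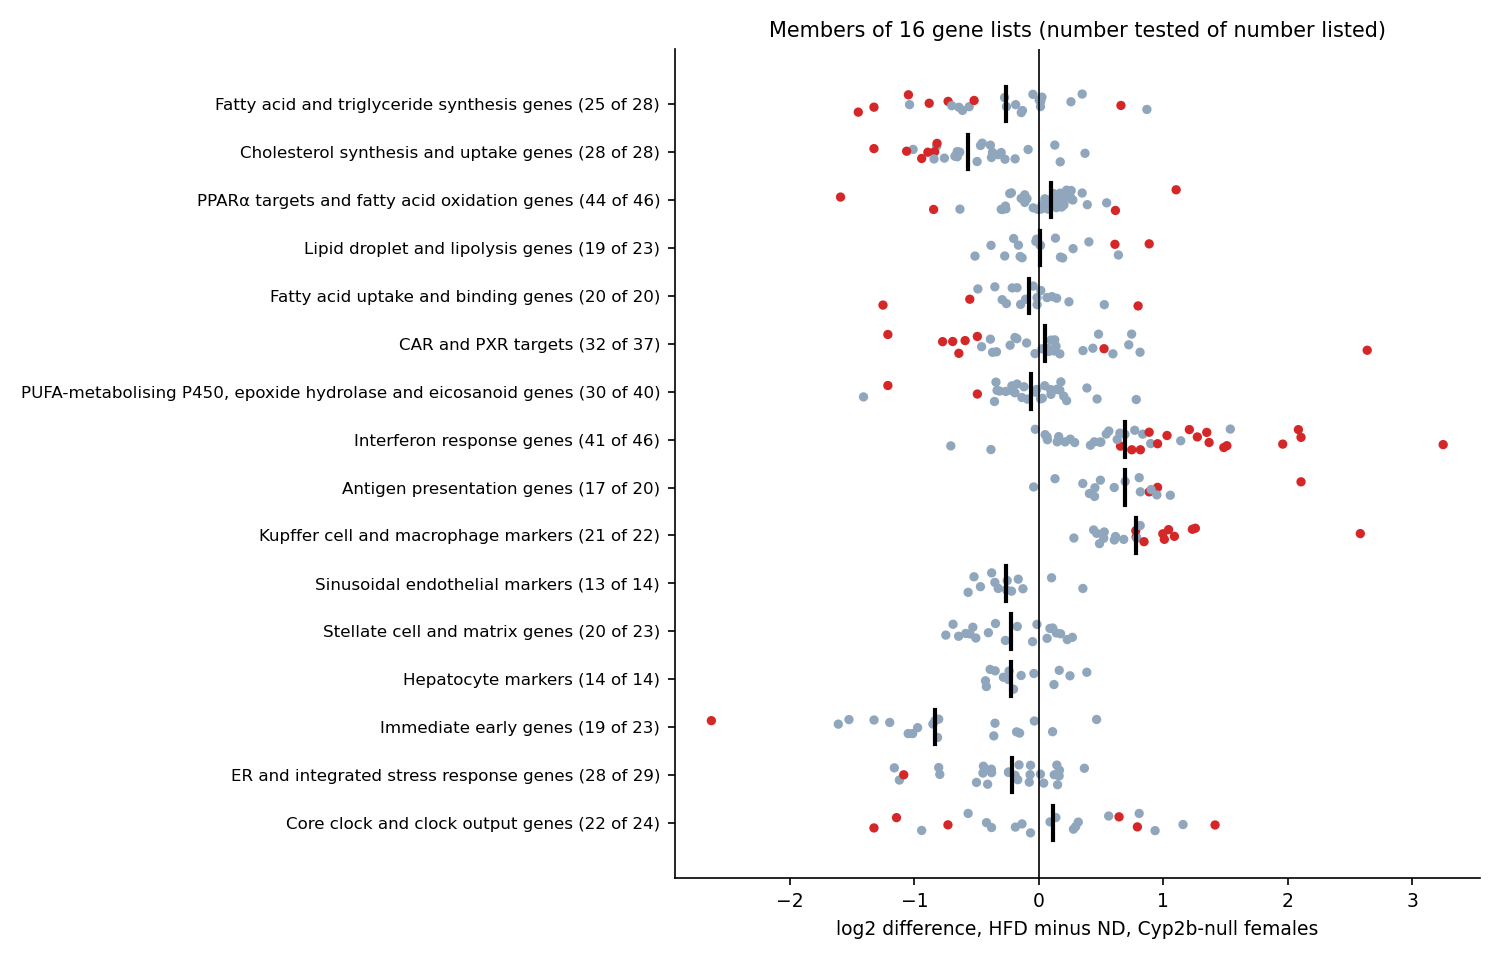
Log2 difference, HFD minus ND, in Cyp2b-null females (x axis) for each tested member of 16 gene lists (rows, with the number tested of the number listed). Each point is a gene, red where its unadjusted p was below 0.05, and the black bar is the median; all 21 tested Kupffer cell and macrophage markers lay above 0 and 25 of 28 cholesterol synthesis and uptake genes lay below it.

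Interferon response genes were higher on HFD. Of the 46 listed 41 were tested, and 38 had a positive and 3 a negative difference, with a median of 0.69 against 0.01 over all genes. At an unadjusted p below 0.05 there were 16 higher and 0 lower, and in 12 members all HFD libraries lay above all ND libraries. The shares of all genes tested were 2.36% higher and 2.44% lower at that p, and 6.18% with all HFD libraries above. None passed the edgeR test. The summed level was 1446, 1319 and 1239 CPM on ND and 1447, 1799 and 3112 CPM on HFD. HFD 1 was at the level of ND 1, and HFD 3 was far above the others.

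Guanylate-binding proteins are interferon-induced GTPases that attack the vacuoles of intracellular pathogens. Gbp7 (chromosome 3, 142530342 to 142550149, forward strand) was at 17.8, 14.4 and 18.2 CPM on ND and 35.2, 35.6 and 72.8 CPM on HFD. Gbp3 (chromosome 3, 142560026 to 142573209, forward strand) was at 16.5, 11.2 and 14.2 CPM on ND and 25.4, 33.8 and 104 CPM on HFD. By the rule that named them, both genes were higher in each HFD library than in any ND library. Both were highest in HFD 3. The log2 differences were 1.51 ± 0.37 for Gbp7 and 1.96 ± 0.468 for Gbp3 (edgeR adjusted p = 0.963 for both). Gbp2, chosen after its values were seen, was at 7.38, 3.59 and 6.87 CPM on ND and 11.3, 8.33 and 56.2 CPM on HFD (2.09 ± 0.676). Gbp genes are close paralogues, and reads can be shared among them.

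The 3 neighbouring promoters are shown because these genes lay higher together and each holds a match to the interferon-stimulated response element, the site of interferon-activated factors. Capitals mark the match to its core, GAAANNGAA, searched on both strands; all matches shown read on the opposite strand, as TTCNNTTTC. The sequences are from RefSeq (GRCm38.p6, forward strand) and give the 250 bases before the RefSeq gene start, 5′ to 3′.
Gbp7, chr3:142530086-142530335: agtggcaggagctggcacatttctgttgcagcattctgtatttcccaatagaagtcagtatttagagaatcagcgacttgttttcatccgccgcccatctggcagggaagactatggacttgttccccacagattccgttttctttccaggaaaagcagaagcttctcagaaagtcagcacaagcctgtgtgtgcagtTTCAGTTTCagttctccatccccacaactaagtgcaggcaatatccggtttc
Gbp3, chr3:142559794-142560043: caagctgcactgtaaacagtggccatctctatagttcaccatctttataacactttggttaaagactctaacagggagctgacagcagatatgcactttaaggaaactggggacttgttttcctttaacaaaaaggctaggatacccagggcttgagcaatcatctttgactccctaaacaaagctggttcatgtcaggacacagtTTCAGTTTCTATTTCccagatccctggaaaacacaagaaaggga
Gbp2, chr3:142620413-142620662: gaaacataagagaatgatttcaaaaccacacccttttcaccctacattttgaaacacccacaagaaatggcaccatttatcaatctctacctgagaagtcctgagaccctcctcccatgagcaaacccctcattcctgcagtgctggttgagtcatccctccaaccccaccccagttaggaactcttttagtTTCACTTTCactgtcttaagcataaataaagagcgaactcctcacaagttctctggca
The first base of the match lies at -52 in Gbp7, -44 in Gbp3 and -58 in Gbp2, counted from the RefSeq gene start. The capitals of Gbp3 hold 2 overlapping matches. The GENCODE starts differ from these. For Gbp3 (142560026) and Gbp2 (142620602) they lie inside the printed windows, and the Gbp2 match lies within its GENCODE gene. In the RefSeq windows of 300 bases, which run from 250 bases before to 50 bases after each gene start, this motif was found in 2812 of 32851 promoters (8.56%), or for 2638 of 27025 genes (9.76%). Of the 46 interferon response genes 33 had a promoter in the RefSeq table, and 21 of these 33 held a match. The gamma-activated site, TTCNNNGAA on either strand, was found for 9.55% of the genes and for 10 of the 33. Of the 3 promoters shown, Gbp7 held 2 such matches, apart from the capitals. A match of letters is a description of the sequence and not evidence of binding.

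Irf1, an interferon-induced transcription factor, was chosen after its values were seen. It was at 39.5, 29.6 and 30.7 CPM on ND and 43.4, 51.8 and 62.2 CPM on HFD (0.66 ± 0.22), without overlap and with a smaller distance of HFD 3 from the other libraries than in the Gbp genes.

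Antigen presentation genes had a median difference of 0.69, with 16 of 17 tested members of 20 listed higher. Psmb9, an interferon-induced subunit of the immunoproteasome, was at 3.47, 1.80 and 4.04 CPM on ND and 5.87, 13.9 and 21.1 CPM on HFD (2.11 ± 0.622). Tap2, part of the peptide transporter that loads class I molecules, was at 9.12, 8.53 and 7.28 CPM on ND and 12.1, 11.1 and 24.9 CPM on HFD (0.95 ± 0.358). Both were higher in all HFD libraries. Psmb8, another immunoproteasome subunit, overlapped, at 27.4, 18.4 and 23.05 CPM on ND and 21.9, 37.0 and 68.3 CPM on HFD (0.89 ± 0.385). The list as a whole was at 2973, 2955 and 2841 CPM on ND and 2417, 3486 and 4736 CPM on HFD, so HFD 1 was the lowest of all 6 libraries. Psmb9 shares exon bases with Tap1, which lies beside it on the other strand.

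The interferon and antigen presentation values leaned on HFD 3. Without that library 33 of 41 interferon genes were higher, with a median of 0.36 and 4 at an unadjusted p below 0.05. Over all genes tested without HFD 3, 171 of 12123 were higher at that p. The median of the antigen presentation genes was then 0.08, with 12 of 18 higher. Gbp7 and Gbp3 then differed by 1.07 and 1.08, and Gbp2 by 0.72 in place of 2.09. With a term for the library sides 39 of 41 interferon genes were higher, with a median of 0.67.

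Kupffer cell and macrophage markers were higher on HFD in all 21 members tested, of 22 listed. The median difference was 0.78 against 0.01 over all genes, with 10 higher at an unadjusted p below 0.05 and 10 without overlap. Of all genes tested 2.36% were higher at that p, and 6.18% had all HFD libraries above all ND libraries. Their summed level was 656, 672 and 442 CPM on ND and 855, 762 and 1306 CPM on HFD. All HFD libraries were above all ND libraries in this sum, and ND 3 was the lowest and HFD 3 the highest. In whole liver, more cells of a type and more RNA per cell cannot be told apart.

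Fcer1g, the signalling chain of Fc receptors, was at 5.64, 7.64 and 10.1 CPM on ND and 11.3, 14.8 and 21.1 CPM on HFD (1.01 ± 0.316). Cd5l, a scavenger protein secreted by tissue macrophages, was at 72.9, 79.9 and 30.7 CPM on ND and 97.0, 102 and 191 CPM on HFD (1.09 ± 0.403). Folr2, a folate receptor of resident macrophages, was at 5.21, 10.3 and 5.26 CPM on ND and 15.7, 11.6 and 15.5 CPM on HFD (1.04 ± 0.406). Fcer1g, Cd5l and Folr2 were named for having the smallest unadjusted p of the list, and none overlapped. Of the 21 tested members 10 did not overlap. Folr2 was as high in HFD 1 as in HFD 3.

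Clec4f and Adgre1 were named whatever their values, and both overlapped between the diets. Clec4f, the lectin that defines mouse Kupffer cells, was at 90.7, 123 and 64.7 CPM on ND and 113, 107 and 119 CPM on HFD (0.28 ± 0.293), within the ND range. Adgre1, which encodes F4/80, was at 8.25, 3.59 and 3.23 CPM on ND and 11.7, 6.01 and 18.1 CPM on HFD (1.26 ± 0.561). The scavenger receptor gene Marco, chosen after its values were seen, was at 5.64, 18.0 and 3.64 CPM on ND and 10.2, 11.1 and 140 CPM on HFD. Its difference of 2.58 ± 1.04 came from HFD 3, since it was 0.24 without it. For the whole Kupffer list, 21 of 22 tested members were still higher without HFD 3, with a median of 0.50 and 0 at an unadjusted p below 0.05. Without ND 3 the median was 0.57, with 2. With a term for the library sides all 21 were higher, with a median of 0.64 and 3 at an unadjusted p below 0.05, and the block for the replicate number left 4. With no filter on low counts there were 16. Over all genes tested, 171 of 12123 were higher at that p without HFD 3 and 210 of 12185 without ND 3. Of 11830 genes, 354 were higher with the term for sides and 248 with the block. With no filter 591 of 24203 were higher.

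**Figure D3:**
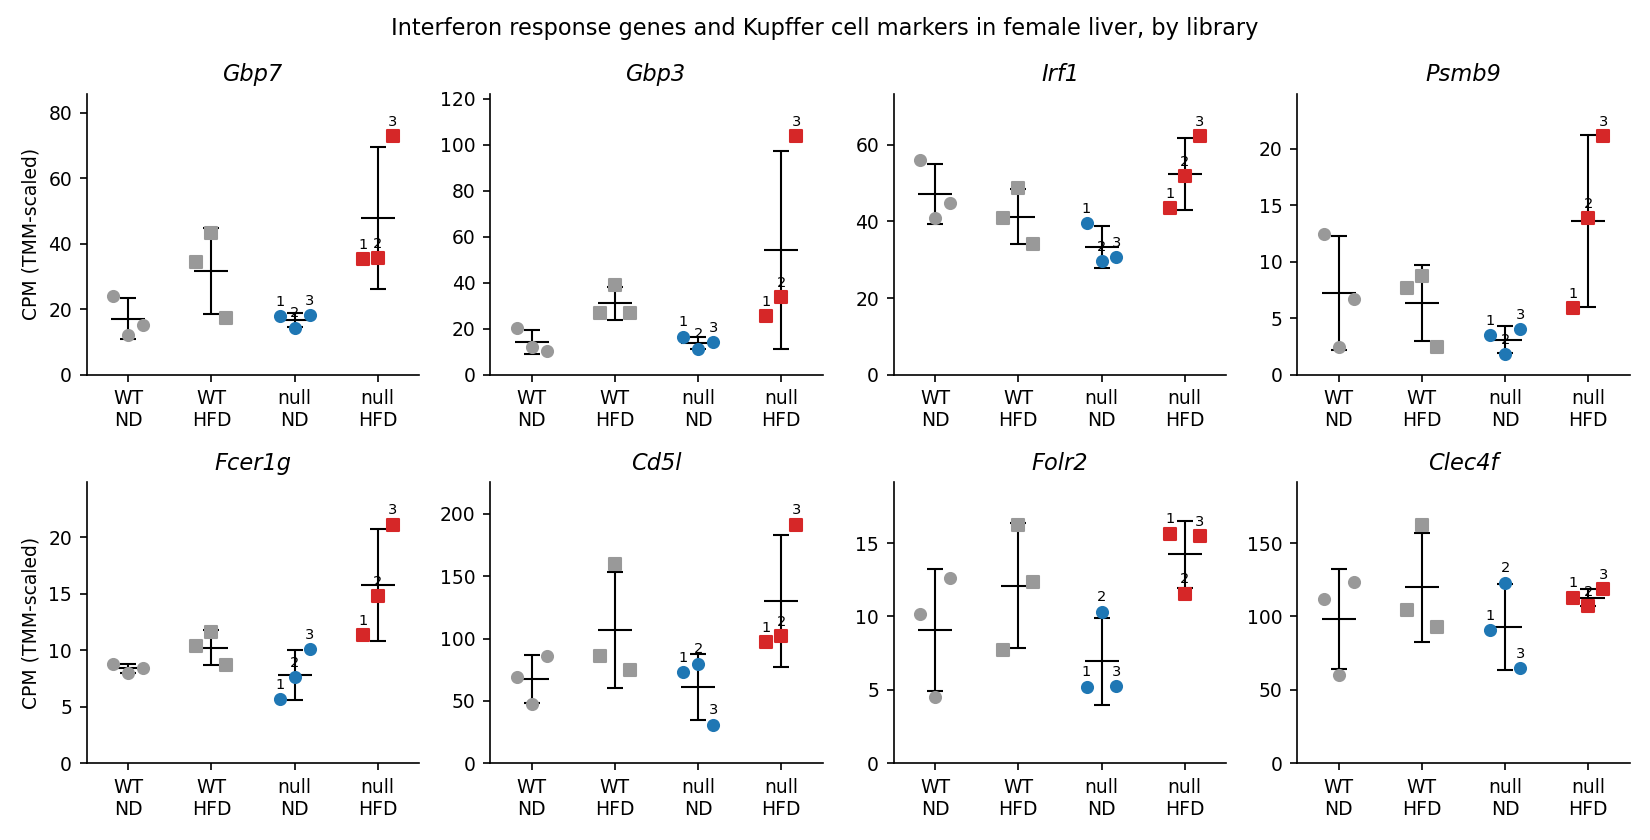
Levels in CPM, scaled by TMM, of 4 interferon response genes and 4 Kupffer cell markers (y axis, from 0, a separate scale for each gene) in the 4 groups of female libraries (x axis); points are libraries, numbered in the Cyp2b-null groups, and bars are the mean ± SD of 3 libraries. Cyp2b-null HFD library 3 is the highest of its group in Gbp7, Gbp3, Irf1, Psmb9, Fcer1g and Cd5l, and Clec4f overlaps between the diets.

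Markers of other cell types were read beside these lists. Lymphocyte and NK markers, of which 1 of 22 was tested, summed to 86.4, 83.1 and 99.1 CPM on ND and 72.8, 131 and 285 CPM on HFD. Most of that level was Cd74, which macrophages and dendritic cells also express, at 75.1, 67.4 and 87.3 CPM on ND and 62.6, 114 and 267 CPM on HFD. Trac, Ighm, Igkc and Iglc2 are listed at 0 in all 6 libraries. A listed 0 does not show that a transcript was missing, since Uqcrc1 and Ndufs3, which every cell uses, are listed at 0 as well. Recruited macrophage and monocyte markers summed to 56.4 to 90.3 CPM on ND and 41.1 to 77.3 CPM on HFD, and 2 of 4 tested of 14 listed were higher. Neutrophil markers were at 6.07 to 6.74 CPM on ND and 2.74 to 6.79 CPM on HFD, with 0 of 13 tested and Ly6g, Mpo, Elane, Ngp, Camp and Ltf at 0.

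Sinusoidal endothelial markers were lower in 11 of 13 tested of 14 listed (median -0.26), at 380 to 460 CPM on ND and 293 to 360 CPM on HFD. Stellate cell and matrix genes were lower in 13 of 20 tested of 23 listed (median -0.22). Hepatocyte markers were lower in 10 of 14 (median -0.22). None of these lists had a member at an unadjusted p below 0.05. The part of these cell type levels in the interferon values was not tested.

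**Figure D4:**
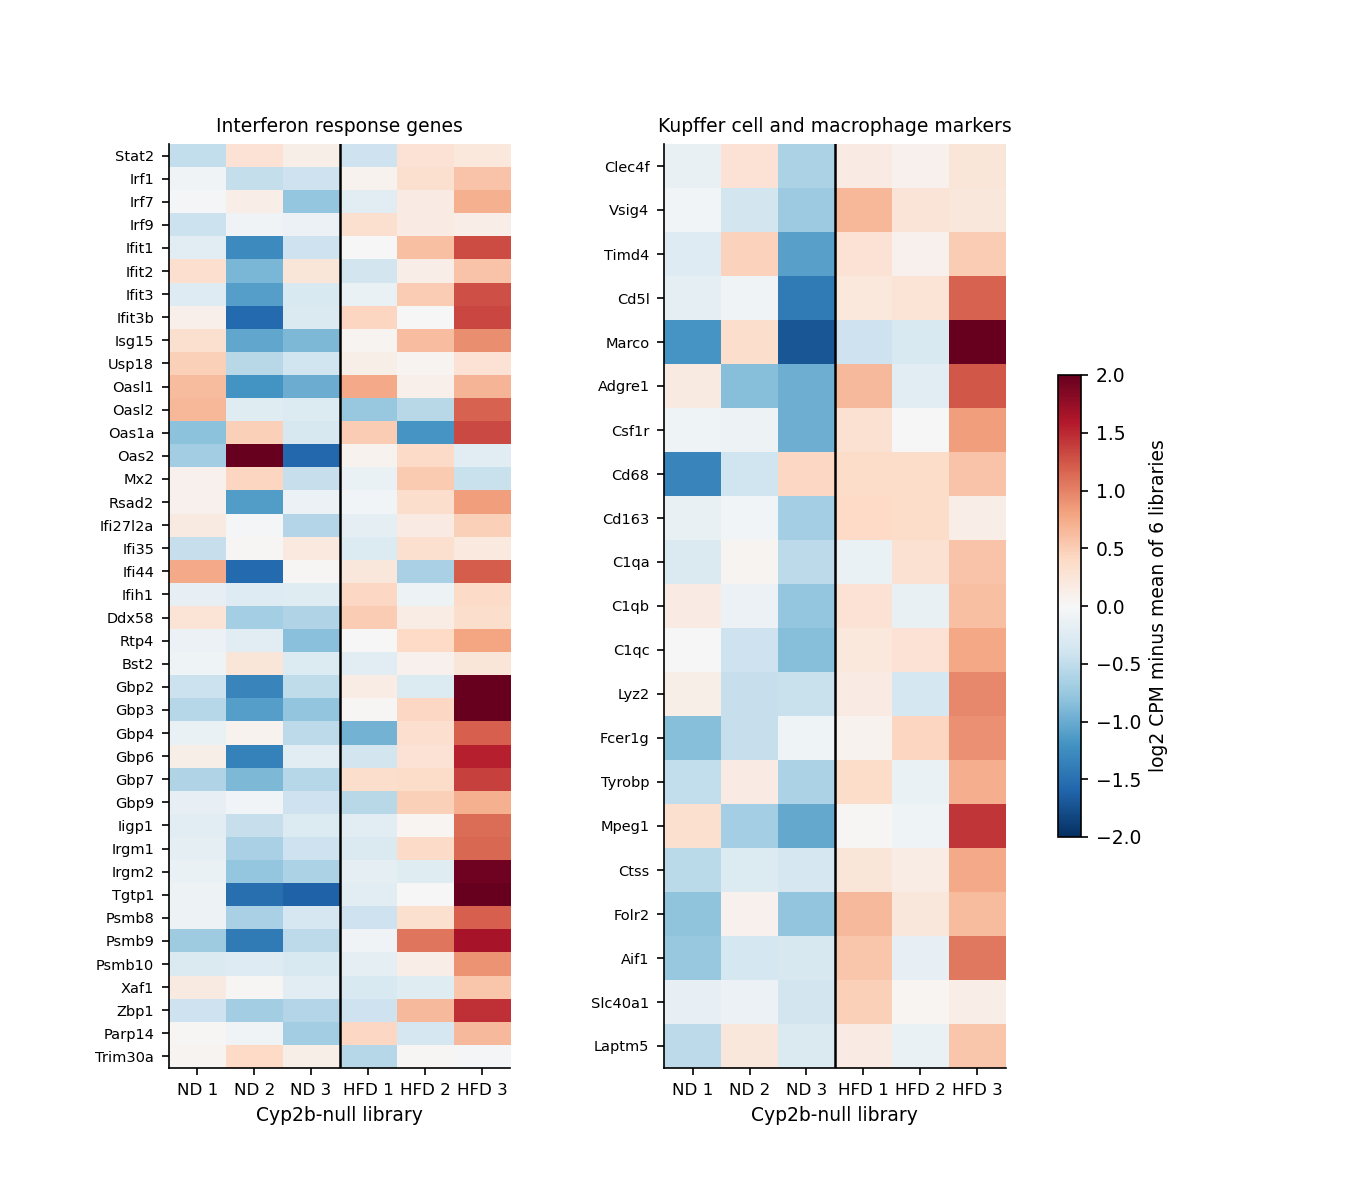
Tested interferon response genes, 1 left out (left), and each tested Kupffer cell and macrophage marker (right) in the 6 Cyp2b-null libraries (columns, ND and HFD parted by the line). Colour is the log2 CPM minus the mean of the 6 libraries, limited to -2 and 2; HFD library 3 is the highest for most interferon genes, and most Kupffer markers are lowest in ND library 3.

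The drug-metabolising genes that CAR and PXR induce had 17 higher and 15 lower of 32 tested of 37 listed, with a median of 0.05. At an unadjusted p below 0.05 there were 2 higher and 6 lower, beside 2.36% higher and 2.44% lower of all genes tested. Ces2a, a carboxylesterase, was at 300, 336 and 360 CPM on ND and 191, 245 and 180 CPM on HFD (-0.69 ± 0.196). The main CYP3A gene of mouse liver, Cyp3a11, was at 1837, 1894 and 2131 CPM on ND and 956, 1707 and 1094 CPM on HFD (-0.64 ± 0.229). Gstm3, a glutathione S-transferase, was at 63.0, 61.1 and 39.6 CPM on ND and 26.6, 32.8 and 36.2 CPM on HFD (-0.77 ± 0.272). In all of these the HFD libraries lay below the ND libraries, Gstm3 by a narrow margin.

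Cyp3a16, a CYP3A paralogue, went the other way. It was at 30.8, 10.8 and 8.49 CPM on ND and 81.8, 116 and 114 CPM on HFD, so that every HFD library was well above every ND library. The log2 difference was 2.64 ± 0.799 (edgeR adjusted p = 0.963). WT females held Cyp3a16 at 8.398 to 117 CPM on ND, a range that covers both null groups. Reads can be shared among the Cyp3a genes, so single values are uncertain.

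P450 genes that metabolise polyunsaturated fatty acids, with epoxide hydrolase and eicosanoid genes, had 13 higher and 17 lower of 30 tested of 40 listed (median -0.06). Cyp2c54 was at 336, 269 and 456 CPM on ND and 268, 104 and 85.2 CPM on HFD (-1.21 ± 0.489), and Cyp2c50 at 874, 880 and 1041 CPM on ND and 727, 695 and 564 CPM on HFD (-0.49 ± 0.21). Both encode CYP2C enzymes that form epoxides of such fatty acids, and in both the HFD libraries were lower, Cyp2c54 by a margin of less than 1 CPM. Cyp2c39 was higher at 8.25, 5.39 and 5.66 CPM on ND and 8.61, 11.1 and 13.6 CPM on HFD (0.78 ± 0.368).

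Of the Cyp2 genes around the deleted cluster, 4 of 6 tested of 10 listed were higher. Cyp2a5, which hydroxylates coumarin, was at 1660, 1146 and 1368 CPM on ND and 1751, 1887 and 2670 CPM on HFD (0.60 ± 0.341). Its near-identical neighbour Cyp2a4, chosen after its values were seen, was at 1227, 1473 and 1144 CPM on ND and 1033, 1095 and 1210 CPM on HFD (-0.20 ± 0.222). Their sum over the list was 3392 to 4013 CPM on ND and 3822 to 5034 CPM on HFD, with overlap.

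Growth hormone dependent and sex-biased genes had 16 higher and 19 lower of 35 tested of 38 listed (median -0.09), with 4 at an unadjusted p below 0.05 in each direction. Of all genes tested 2.36% were higher and 2.44% lower at that p. Mup3, a major urinary protein, was at 581, 489 and 605 CPM on ND and 404, 298 and 200 CPM on HFD (-0.89 ± 0.261). Mup20 was at 23.4, 31.4 and 35.2 CPM on ND and 23.5, 10.6 and 7.54 CPM on HFD (-1.11 ± 0.336). Mup3 did not overlap and Mup20 did, at HFD 1. Mup genes are near-identical copies whose reads can be shared.

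Bile acid synthesis and transport genes were divided, at 11 higher and 14 lower of 25 tested of 26 listed (median -0.14). Cyp7a1, the rate-limiting enzyme of bile acid synthesis, was at 176, 200 and 326 CPM on ND and 372, 203 and 542 CPM on HFD (0.67 ± 0.676). Its spread within each diet was as large as its difference.

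Immediate early genes were lower on HFD in 17 of 19 tested of 23 listed, with a median of -0.83. These genes respond within minutes to growth factors and stress, and tissue handling can induce them. Their summed level was 2481, 3420 and 3192 CPM on ND and 1447, 2841 and 394.8 CPM on HFD. HFD 2 lay within the ND range and HFD 3 was far below all others. Without HFD 3 the median was -0.39, and without HFD 2 it was -1.69. With limma voom it was -1.90. Only 1 member, Gadd45b, was at an unadjusted p below 0.05.

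Gadd45b, a stress-induced regulator of MAP kinase signalling, was at 10.9, 18.9 and 40.4 CPM on ND and 1.96, 6.94 and 2.64 CPM on HFD (-2.63 ± 0.595, edgeR adjusted p = 0.963). Klf10, a TGF-β inducible transcription factor that is not on the list, was at 33.9, 48.5 and 82.1 CPM on ND and 24.3, 24.5 and 18.5 CPM on HFD (-1.29 ± 0.342). Junb, an AP-1 subunit, was at 329, 315 and 315 CPM on ND and 192, 213 and 70.5 CPM on HFD (-1.01 ± 0.576). In each of these the HFD libraries were below the ND libraries. The ND libraries agreed closely for Junb and were spread for Gadd45b and Klf10. Junb shares exon bases with Prdx2 on the opposite strand, whose part in the value was not tested.

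ER and integrated stress response genes were lower in 20 of 28 tested of 29 listed (median -0.22). Ppp1r15a, which ends the integrated stress response by recruiting a phosphatase to eIF2α, was at 31.3, 32.8 and 29.9 CPM on ND and 11.7, 23.1 and 9.80 CPM on HFD (-1.09 ± 0.349). Trib3, a target of the stress factor CHOP, was at 16.1, 15.7 and 11.7 CPM on ND and 10.6, 1.85 and 7.16 CPM on HFD (-1.12 ± 0.582). Neither overlapped. Ppp1r15a shares exon bases with Tulp2 on the opposite strand.

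Clock genes were divided, with 12 higher and 10 lower of 22 tested of 24 listed (median 0.11). Nr1d1, the repressor REV-ERBα, was at 186, 137 and 167 CPM on ND and 135, 67.5 and 93.1 CPM on HFD (-0.73 ± 0.257), and Usp2, a clock-controlled deubiquitinase, at 16.9, 14.4 and 13.3 CPM on ND and 36.4, 36.1 and 46.8 CPM on HFD (1.42 ± 0.521). Neither overlapped. The hour at which livers were taken is not given in the sources used here, and its part in these values was not tested. Nr1d1 shares exon bases with Thra on the opposite strand.

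Cytosolic ribosomal protein genes were lower in 42 of 49 tested of 54 listed, by small amounts (median -0.28), and none was at an unadjusted p below 0.05. Their summed level overlapped, at 4370 to 5606 CPM on ND and 3739 to 4946 CPM on HFD.

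The remaining genes with the smallest p values were of low level. Higher on HFD were Acot11, a fatty acyl-CoA thioesterase, at 6.08, 6.74 and 2.43 CPM on ND and 12.5, 14.3 and 17.3 CPM on HFD (1.54 ± 0.374), and Nuak2, a kinase related to AMPK, at 3.47, 5.39 and 8.09 CPM on ND and 14.1, 10.6 and 19.6 CPM on HFD (1.38 ± 0.385). Arl6ip6 was the most even of this group, at 3.91, 4.49 and 4.85 CPM on ND and 10.96, 10.2 and 10.6 CPM on HFD (1.25 ± 0.337). The others were Zfp516, a zinc finger factor of brown fat, Sipa1l2, Wdr92, the splicing factor gene Prpf3, Gtpbp1 and Slc16a5, of the monocarboxylate transporter family. Their log2 differences ran from 0.87 for Slc16a5 to 1.52 for Zfp516. By the rule that named them, none of these overlapped between the diets. Acot11, Wdr92, Gtpbp1 and Slc16a5 share exon bases with other annotated genes.

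Lower on HFD was Ndrg1, a stress and hypoxia responsive gene, at 21.3, 17.5 and 23.5 CPM on ND and 10.2, 7.86 and 8.30 CPM on HFD (-1.23 ± 0.301). Gstm5, a glutathione S-transferase, was at 17.8, 17.1 and 25.1 CPM on ND and 9.78, 9.25 and 9.80 CPM on HFD (-1.05 ± 0.258), with HFD libraries that were nearly equal. Fam198a (-1.38), the syntrophin gene Sntg2 (-1.39) and the chondroitin synthase gene Chsy3 (-1.28) completed the group. Ndrg1, Gstm5 and Fam198a share exon bases with other annotated transcripts.

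Whether high-fat feeding acted differently in Cyp2b-null and WT females was tested by the interaction, the null diet difference minus the WT diet difference. Of 11830 genes 0 (0%) passed at an edgeR adjusted p below 0.05, and 342 (2.89%) had an unadjusted p below 0.05. DESeq2 called 11 and limma voom 3. WT ND library 1, with 13.96% of its counts from mitochondrially encoded genes, entered this test. Without it 0 genes passed and 575 had an unadjusted p below 0.05. That count ran from 272 without Cyp2b-null HFD 3 to 575 when 1 library was left out, and was 546 without Cyp2b-null ND 1. Scd1 was at 3680 to 4415 CPM in all 6 WT libraries, and its WT diet difference was -0.06. The Cyp2b-null ND libraries lay above that range and the Cyp2b-null HFD libraries below it. The interaction for Scd1 was -1.39 ± 0.30 (edgeR adjusted p = 0.407), 0.0352 with the term for library sides and 0.00484 to 1.0 over all alternatives. Me1 was at 101 to 119 CPM in WT and its interaction was -0.84 ± 0.24.

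Apart from Prom1, the genes with the smallest interaction p had differences of opposite sign in the 2 genotypes. In Cyp2b-null females the differences of Dock6 (0.26, and -0.029 to 0.48 over the alternatives) and Arrdc3 (-0.35) were small. Both genes overlapped between the diets there. Rgs16, an inhibitor of G protein signalling, was at 357, 600 and 752 CPM on ND and 262, 375 and 138 CPM on HFD in Cyp2b-null females. In WT females it was at 23.2, 47.9 and 34.4 CPM on ND and 132, 170 and 469 CPM on HFD. The WT ND libraries were thus far below all others. The interaction was -4.02 ± 0.75 (edgeR adjusted p = 0.407, DESeq2 adjusted p = 2.36e-05).

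Rassf4 was at 249, 244 and 249 CPM on ND and 128, 214 and 81.1 CPM on HFD in Cyp2b-null females, against 63.9 to 82.4 CPM on ND and 138 to 246 CPM on HFD in WT (-2.19 ± 0.42). Arrdc3, an arrestin-domain protein, was at 235 to 321 CPM on ND and 150 to 315 CPM on HFD in Cyp2b-null females, against 55.1 to 87.3 and 192 to 257 CPM in WT (-1.87 ± 0.39). For Arrdc3 the WT ND group stood apart below, and for Rassf4 its range held Cyp2b-null HFD 3. The Cyp2b-null libraries on either diet were at or above the level of WT HFD, apart from HFD 1 and HFD 3 for Rassf4 and HFD 2 and HFD 3 for Arrdc3.

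Dock6, a guanine nucleotide exchange factor, was at 110, 81.7 and 123 CPM on ND and 170, 122 and 83.3 CPM on HFD in Cyp2b-null females, against 273 to 359 CPM on ND and 64.7 to 118 CPM on HFD in WT (2.15 ± 0.40). Prom1, the CD133 gene, was at 1.30 to 1.62 CPM on ND and 2.26 to 5.09 CPM on HFD, against 10.7 to 20.2 and 2.06 to 2.499 CPM in WT (3.90 ± 0.66). Tsc22d3, the glucocorticoid-induced leucine zipper, was at 34.6 to 44.1 CPM on ND and 54.3 to 57.8 CPM on HFD, against 86.1 to 135 and 49.0 to 63.7 CPM in WT (1.43 ± 0.29). For these genes WT ND stood apart above. Within Cyp2b-null females the diets overlapped for Dock6 and did not for Tsc22d3. Prom1 passed the filter on low counts only through the WT ND libraries, so no diet difference within Cyp2b-null females is read from its few counts. Its interaction draws on the same WT ND level that let it pass. None of these interactions passed the edgeR test (adjusted p = 0.344 for Prom1 and 0.407 for the others).

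Genes of fat handling had interactions of either sign. Plin2 was at 201 to 292 CPM in WT on ND and 319 to 361 CPM on HFD (interaction -0.89 ± 0.29), while Cd36 was at 83.1 to 88.9 CPM in WT on ND and 28.2 to 69.7 CPM on HFD (1.36 ± 0.51). The interferon and Kupffer genes were also higher on HFD in WT females, with medians of 0.55 and 0.44 beside 0.69 and 0.78 in Cyp2b-null females. The interactions of Gbp7 (0.62 ± 0.53) and Gbp3 (0.84 ± 0.66) were less than 2 times their errors. The cholesterol list had a median of -0.22 in WT beside -0.57 in Cyp2b-null females, and the immediate early list 0.60 beside -0.83. A difference between the genotypes in these medians was not tested.

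**Figure D5:**
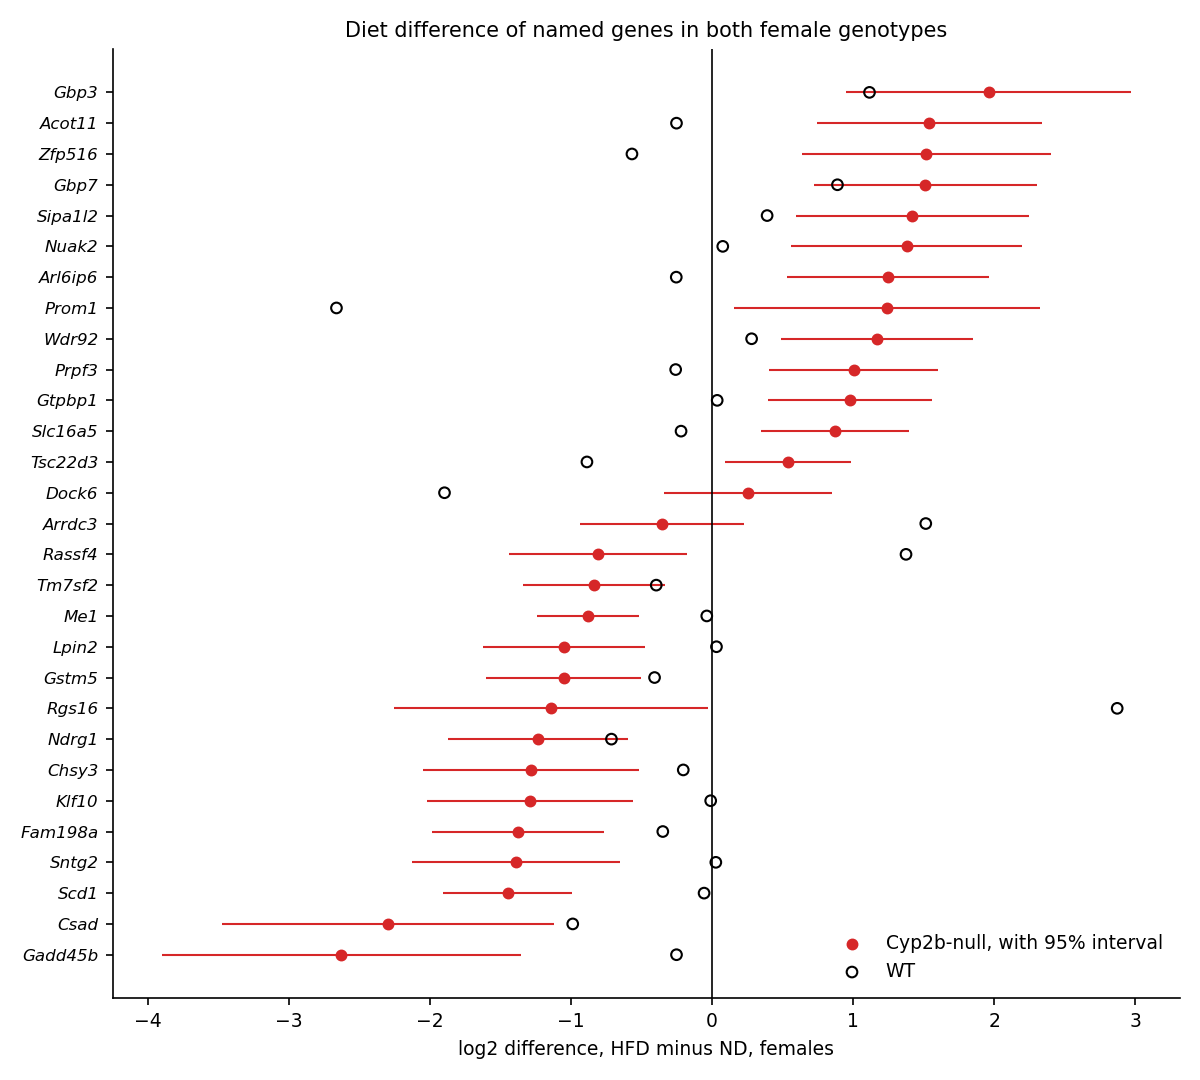
Log2 difference, HFD minus ND (x axis), of the genes named by rank or by interaction, 1 left out (rows) in Cyp2b-null females (filled, with 95% interval) and in WT females (open). Scd1 and Me1 lie below 0 in Cyp2b-null and near 0 in WT females. The WT differences of Rgs16 and Dock6 lie on the other side of 0 from the Cyp2b-null differences, which for Dock6 is only 0.26.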

How the data were processed

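Liver RNA of 12 female libraries was analysed from 1 deposited table of raw counts per gene symbol; the table of the 12 male libraries was not used here. Per the submitters' processing notes, the authors used FastQC, Trimmomatic, GSNAP and Subread with the GRCm38.p5 build to make these counts, and edgeR is also named. The sources used here do not give the order of steps, the tool versions, the annotation or whether counting used strand. The table held 46093 symbols. Counts of 2 duplicated symbols were added up. A spreadsheet had turned 25 symbols into dates; these made up at most 0.153% of any library, counted toward its total and entered no test.

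Groups follow the sample titles. Counts were fitted with edgeR 4.0.16 (R 4.3.3), quasi-likelihood test with robust fitting, over all 12 libraries with 1 term per group, so that the 4 groups share 1 estimate of the spread. Scaling was by TMM, and filterByExpr by group kept 11830 genes. Benjamini-Hochberg adjustment ran over these genes, with 0.05 as the threshold. The script was checked on simulated counts. Levels are TMM-scaled CPM, differences are log2 with ± SE, and intervals are 95%. Libraries of a group never agreed within sampling noise (the lowest chi-square was 5.56 per degree of freedom).

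Alternatives comprised scaling by RLE, no filter on low counts, DESeq2 1.42.0, limma 3.58.1 voom with library weights, a fit of the Cyp2b-null groups only, a block for the replicate number, a term for the library sides of the first principal component, and leaving out each library. The sides were read from the counts they adjust. Genes were named by rule: the targeted genes, genes called here or with that term, and the 12 with the smallest p in each direction whose diets did not overlap, limited to a mean log2 CPM of 1 or more and to names that are not predicted or clone names. The rule also took up to 3 members per list, by the smallest unadjusted p of the diet difference. It took up to 3 genes each way by the smallest interaction p, and 19 defining genes. Of the named genes, 3 are not reported here. The 44 lists (965 genes), rules and comparisons were chosen with earlier results of these data known. Lists are described by counts and medians, with no test. Gene positions are from GENCODE M21 and promoters from RefSeq.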

Additional observations from a re-analysis of the deposited data

How the results depend on the processing

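The 0 calls for the diet difference in Cyp2b-null females became 30 with no filter on low counts, 3 with DESeq2, 1 with limma voom and 1 with the term for library sides, and stayed 0 with RLE scaling, the compared groups alone, the replicate block and each library left out. The cause was not tested. The 568 genes at an unadjusted p below 0.05 became 1080 with no filter (24203 genes tested) and 1434 with limma voom, and ranged from 338 to 916 when 1 library was left out, lowest without HFD 3 and highest without ND 1. The 0 interaction calls became 23 with no filter, 11 with DESeq2, 3 with limma voom and 2 with the term for sides, and were 0 to 1 with 1 library left out, the 1 being Angptl8 without WT HFD 1. With the replicate block 527 genes had an unadjusted p below 0.05. Same-numbered libraries deviated with r of 0.356, 0.312 and -0.129, and pairs with unlike numbers with r from -0.482 to 0.257. Whether same-numbered libraries share more than a number was not tested. Of 1113 values of the diet difference of 86 named genes under the alternatives, 1086 kept direction and side of the threshold, 19 passed it and 8 turned direction. Interactions are not in this count. Cyp4a14 was -0.20 with limma voom and -0.16 to 0.70 with 1 library left out. Cidec was 0.11 with the term for sides and -0.53 to 0.36 with 1 library left out. Dock6 ranged from -0.029 to 0.48 and Pparg from -0.31 to 0.0026 with 1 library left out. Depth limits the precision of low genes: Cidec, Fgf21 and Prom1 had 3 to 32 counts in each Cyp2b-null library. Having 3 libraries per diet limits every value.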
